A study of Homo sapiens with 20 samples.

Results

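The 6 libraries described here come from wild-type (WT) Jurkat cells that were activated through CD3 and CD28, with or without added thrombospondin-1 (TSP1). They were chosen by their labels, 3 with TSP1 and 3 without, out of 20 libraries in all. Jurkat is a human T lymphoblast line from a T cell leukemia. Cells were held in serum-free medium and plated on dishes that carried antibodies to CD3 and to CD28 (CD3+CD28), or on the same dishes with 1 μg/mL TSP1 in the medium (CD3+CD28+TSP1). Anti-CD28 was coated at 4 μg/mL in both groups. RNA was taken at 1, 3 and 6 h, and each condition was sequenced once at each time point, so the 3 time points are the only repeats of the TSP1 comparison. The remaining libraries used beside them are untreated WT cells at 1 h, WT cells given TSP1 alone at 1, 3 and 6 h, and the same 10 conditions in JinB8, a CD47-deficient somatic mutant line derived from Jurkat (CD47-), the 1 such line used. The values are RSEM expected counts per gene, given here as counts per 1000000 (CPM) after TMM scaling of each library's total in edgeR. The 6 libraries held between 22555825 and 31737616 counts.

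TSP1 is a secreted matricellular glycoprotein that platelets and many stromal cells release, and CD47 is a signaling receptor for it on T cells. Binding of TSP1 to CD47 is known to dampen signaling downstream of the T cell receptor. That signaling passes through LCK, ZAP70, LAT and the ERK kinases to immediate early genes such as FOS and EGR1, which are transcribed within minutes and need no new protein. Surface molecules and cytokines such as CD69, CD40 ligand and TNF follow, and phosphatases of the DUSP family and SPRY proteins shut the pathway down again. The comparison asks which transcripts of activated cells depend on whether TSP1 was present.

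The cells carried the transcripts that the labels lead one to look for. The summed level of 12 T cell markers, among them CD3E, LCK, LAT and TRAC, was 2770 to 3360 CPM with TSP1 and 2820 to 3170 CPM without it. The summed level of 7 platelet markers was 0.587 to 1.07 CPM with TSP1 and 0.308 to 0.956 CPM without, and PPBP, PF4, GP9 and GP1BA had no count in any of the 6 libraries. Monocyte markers summed to at most 1.02 CPM, epithelial markers to at most 2.72 CPM, erythroid markers to at most 2.81 CPM and fibroblast markers to at most 6.61 CPM. The 4 B cell markers summed to 44 to 52.3 CPM with TSP1 and 42.2 to 55.9 CPM without. CD47 mRNA lay between 253 and 372 CPM in the 10 WT libraries and between 124 and 165 CPM in the 10 CD47- libraries, so its transcript was still present in the mutant.

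Adding TSP1 to activated WT cells changed no gene past an adjusted p of 0.05 when the 3 time points were tested together with edgeR's quasi-likelihood method. The test covered 16327 of 60719 genes, with 0 called (0%). The smallest adjusted p was 1 in edgeR. At an unadjusted p under 0.05 there were 366 genes (2.24%), 231 with higher and 135 with lower levels with TSP1. Limma voom called 0 genes and had 398 at an unadjusted p under 0.05, and DESeq2 called 1, SNORD3D, and had 210. The 366 became 716 without the CD47- CD3+CD28+TSP1 library at 3 h, which shares the model, 718 without WT CD3+CD28 at 3 h, 894 without WT CD3+CD28+TSP1 at 3 h and 233 without WT CD3+CD28+TSP1 at 1 h. The model removes a time difference that the treatments of a line share. These p-values then measure how far the 20 libraries, each made once, depart from a treatment term plus a time term. A treatment effect that changes with time counts as error in it. With no gene differing, a threshold of 0.05 passes that share of genes on average, and 2.24% is fewer. The log2 fold changes (CD3+CD28+TSP1 minus CD3+CD28) had a median of -0.000909 over all genes tested and a median absolute value of 0.08, against a median SE of 0.13.

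The same fit shows which sizes of change, averaged over 1, 3 and 6 h, it leaves room for. The 95% interval of the fold change lay within 2-fold of no change for 13940 genes (85.4%) and within 1.5-fold for 10946 genes (67%). Among the 9440 genes with a mean of at least 10 CPM in the 6 libraries, 9089 (96.3%) had an interval within 1.5-fold. These intervals do not limit a change at a single time point. CD69 had an interval from -0.48 to 0.66 on the log2 scale, while its ratio was -0.31 at 1 h and 0.69 at 6 h. A gene had to point the same way at 1, 3 and 6 h to count as uniform, and 1730 genes (10.6%) were higher with TSP1 in all 3 pairs while 2017 (12.4%) were lower in all 3. For a single value tested over 3 pairs, an exact sign-flip test cannot give a p below 0.25.

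**Figure D1:**
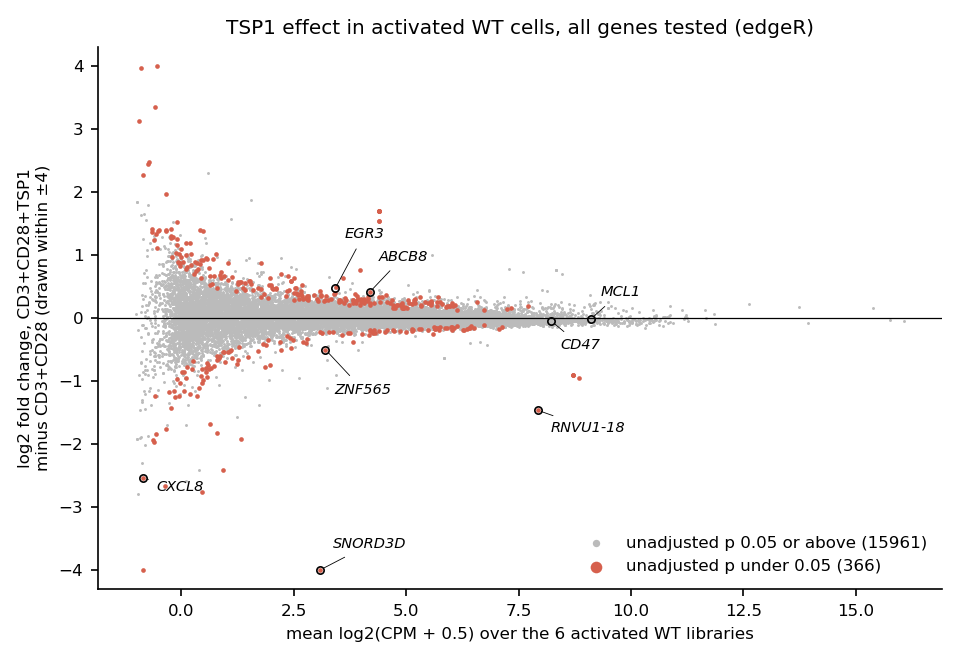
Each point is 1 of the 16327 genes tested, with its mean log2(CPM + 0.5) over the 6 activated WT libraries on the x axis and its edgeR log2 fold change with TSP1 on the y axis, with values more than 4 units from 0 drawn at the edge. The 366 genes in red had an unadjusted p under 0.05 and none passed after adjustment. The cloud narrows toward highly expressed genes, and SNORD3D and RNVU1-18, small RNA genes with near-identical copies, lie below it, SNORD3D at the edge.

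Of the genes that the study examined for a TSP1 response, or cites from its authors' earlier work for one, edgeR called 0 of those tested. MCL1, an anti-apoptotic BCL2 family member, was present at 1293, 490 and 269 CPM with TSP1 at 1, 3 and 6 h and at 1347, 507 and 250 CPM without it. In both series the 6 h value was the lowest and the 1 h value the highest, and the log2 fold change with TSP1 was -0.01 (SE 0.13; adjusted p = 1 by edgeR). CD40LG, which encodes the CD40 ligand that T cells use to help B cells, was at 8.21, 13 and 13.9 CPM with TSP1 and at 9.94, 11.9 and 12.9 CPM without. Its log2 fold change was -0.00322 (SE 0.0979), and its 95% interval ran from -0.21 to 0.21. TNF, an inflammatory cytokine, was at 2.68, 3.37 and 0.914 CPM with TSP1 and at 2.77, 2.85 and 0.879 CPM without. The difference in TNF was 0.09 on the log2 scale (SE 0.18), with the groups overlapping. With TSP1 alone at 6 h the levels were 239 CPM for MCL1, 14.3 CPM for CD40LG and 0.599 CPM for TNF. Against these single libraries, CD3+CD28 at 6 h showed little rise of MCL1 and none of CD40LG. No untreated library was labelled at 6 h, so whether TSP1 limits a rise of these genes on activation was not tested.

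TIGIT, an inhibitory receptor, could not be measured at this depth. It had 1 count in each of the 3 TSP1 libraries and 1, 0 and 1 counts without TSP1, and it was not tested. A limit of 3 counts corresponds to 0.0979 to 0.143 CPM in these libraries. MYCNOS, the antisense partner of MYCN, had 1, 2 and 2 counts with TSP1 and 1, 1 and 2 without. MYCN itself, a MYC family transcription factor, was at 1.03, 0.896 and 0.555 CPM with TSP1 and 0.908, 0.861 and 0.571 CPM without, a log2 fold change of 0.07 (SE 0.23). With TSP1 alone at 6 h MYCN was at 0.799 CPM, above both activated libraries. MYC was at 26.8, 24.6 and 83.3 CPM with TSP1 and 22.1, 29.9 and 84 CPM without, a log2 fold change of -0.01 (SE 0.11). Its 6 h value was about the same with and without TSP1, while the 1 h and 3 h pairs pointed in opposite directions. CD47 had a log2 fold change of -0.05 (SE 0.06), the transcription factor ETS1 0.00459 (SE 0.0768), the deubiquitinase YOD1 -0.08 (SE 0.07) and the translation factor EEF1A1 -0.08 (SE 0.14). Each of these 4 intervals lay within 2-fold of no change. CD69, an early activation marker, had a log2 fold change of 0.09 (SE 0.27).

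No immediate early gene passed the test for TSP1, and the direction of the list differed among time points. Of 30 genes on this list 28 were tested, 24 had a log2 fold change above 0 and 4 below, and edgeR called 0, with 0 below 0.05 before adjustment. Their median log2 fold change was 0.09, against -0.000909 for all genes tested, of which 49.7% were above 0. Within the pairs their median log2 ratio was positive at 1 h (0.25), negative at 3 h (-0.11) and positive at 6 h (0.18), where 20 of the 28 were higher with TSP1 (71.4%, against 49.7% of all genes at 6 h). In CD47- cells the pair medians were 0.03, -0.17 and 0.08 at 1, 3 and 6 h, of the same sign as in WT cells, and 20 of the 28 were likewise higher with TSP1 at 6 h. The -0.17 is from the pair whose TSP1 library has the fewest counts and stands apart, and the 0.03 is near 0. With a GC content offset in the fit, added after seeing the data, the median was 0.05 and 21 of 28 were above 0. At 1 h, 6 of the 28 were past 1.5-fold, against 1378 of the 16327 genes tested, and GC-rich transcripts in general were higher in that TSP1 library.

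At 1 h the ratios past 1.5-fold included JUNB at 2.48 and EGR4 at 2.41, both below 1 at 3 h (0.542 and 0.637). At 6 h they were in genes whose levels were by then far below those at 1 h. EGR1, a zinc finger transcription factor induced by ERK, was at 186, 83.4 and 17.5 CPM with TSP1 at 1, 3 and 6 h and at 154, 90.4 and 10.9 CPM without. The TSP1 value was the higher at 1 h and 6 h and the lower at 3 h. At 6 h this is 537 counts against 248, a ratio of 1.61 (95% exact interval 1.38 to 1.88, for counting error only). EGR2, a relative of EGR1, had 120 counts against 28 at 6 h, a ratio of 3.18 (interval 2.10 to 4.99), while its 1 h ratio was 1.01 and its 3 h ratio 0.901. EGR3 had 83 counts against 24 at 6 h, a ratio of 2.57 (interval 1.61 to 4.23). Over the 3 time points EGR3 had the smallest p of the list, with a log2 fold change of 0.47 (SE 0.28, unadjusted p = 0.121, adjusted p = 1 by edgeR). FOSB went the other way at 6 h, with 4.54 CPM with TSP1 and 6.24 CPM without. FOS differed by a ratio of 1.14 at 6 h, with an interval from 0.938 to 1.39 that includes 1.

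NR4A1, an orphan nuclear receptor that reports T cell receptor signaling, was at 485, 208 and 17.3 CPM with TSP1 and at 383, 210 and 9.84 CPM without. IER3, an early response gene, was at 156, 230 and 48.8 CPM with TSP1 and at 116, 275 and 27.2 CPM without. The 6 h ratios were 1.75 for NR4A1 (interval 1.5 to 2.06) and 1.79 for IER3 (interval 1.63 to 1.97). CD69, a lectin that appears on the surface of T cells soon after activation, was at 365, 273 and 56.1 CPM with TSP1 and at 455, 264 and 34.5 CPM without. It was lower with TSP1 at 1 h and higher at 6 h, with ratios of 0.804 (interval 0.780 to 0.828) and 1.62 (interval 1.49 to 1.77). At 6 h the cells given TSP1 alone lay below both activated libraries, at 3.56 CPM for EGR1, 6.35 CPM for NR4A1, 20.2 CPM for IER3 and 20.3 CPM for CD69. Untreated cells were labelled at 1 h only, with 76.7 CPM for EGR1 and 106 CPM for CD69.

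**Figure D2:**
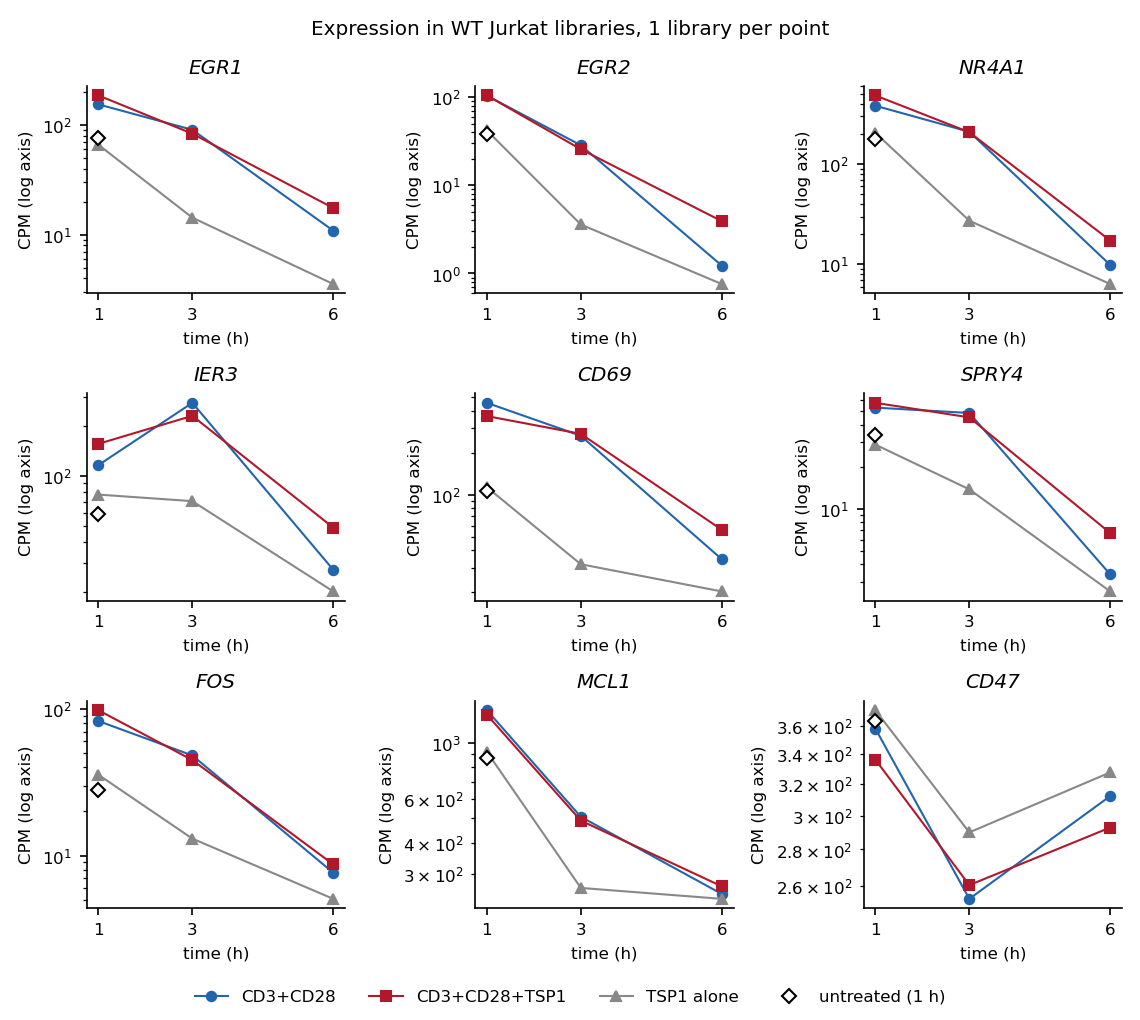
CPM on a log axis against time in hours for 9 genes in WT libraries, with 1 library per point. For EGR1, EGR2, NR4A1, IER3, CD69 and SPRY4 the CD3+CD28+TSP1 library lies above CD3+CD28 at 6 h, and TSP1 alone lies lowest there, while MCL1 and CD47 differ little between the activated libraries.

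Across all genes with a pair mean of at least 5 CPM, 40 of 10696 (0.374%) were over 1.5-fold higher with TSP1 at 6 h and 23 (0.215%) were lower. Of the 40, 18 are protein coding by GENCODE, and they include SPRY4, IER3, ZFP36L1, NR4A1, SCG2, CD69, EGR1, PHLDA1 and MAP2K3, chosen here after their values were seen. SPRY4, a feedback inhibitor of ERK signaling, was at 6.69 CPM with TSP1 and 3.38 CPM without, and ZFP36L1, which promotes decay of AU-rich mRNAs, at 9.37 and 5.23 CPM. Many of the rest are copies of 5.8S rRNA and U1 small nuclear RNA genes. Of the 15 feedback inhibitors of ERK signaling, 12 were higher with TSP1 at 1 h, 3 at 3 h and 13 at 6 h (86.7%, against 49.7% of all genes), and 0 had an unadjusted p under 0.05 over the 3 time points. IL2RA, the alpha chain of the interleukin 2 receptor, did not pass the low-count filter, and had 18, 119 and 28 counts with TSP1 against 25, 153 and 3 without. Its ratio was 0.732 at 3 h (interval 0.571 to 0.937) and 6.93 at 6 h (interval 2.14 to 35.6), so it was lower with TSP1 at 3 h and higher at 6 h. In CD47- cells 8 of the 15 feedback inhibitors were higher at 6 h, and that pair gave a log2 ratio of 0.31 for EGR1, 0.37 for EGR2, -0.16 for NR4A1, -0.15 for IER3 and -0.55 for CD69. There is 1 library of each kind at 6 h, so a difference between dishes or RNA preparations and an effect of TSP1 cannot be told apart.

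EGR1 shows the arrangement for which serum response genes are known, so its promoter is given here. CArG boxes bind serum response factor, the partner of the ERK-regulated ternary complex factors. The RefSeq promoter of EGR1 in GRCh38.p14, chr5:138465229-138465528 on the plus strand, spans 250 bases before to 50 bases after the start, and the capitals mark its 2 CArG boxes, which begin 105 and 83 bases before the start.
EGR1 promoter: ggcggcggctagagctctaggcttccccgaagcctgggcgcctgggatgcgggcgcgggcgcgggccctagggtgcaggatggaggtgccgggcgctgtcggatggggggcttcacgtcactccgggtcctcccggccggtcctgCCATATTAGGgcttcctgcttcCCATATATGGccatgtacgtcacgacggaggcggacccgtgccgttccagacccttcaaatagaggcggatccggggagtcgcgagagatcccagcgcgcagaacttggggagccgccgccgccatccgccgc
Of the 30 immediate early genes 22 were in the promoter table, and 3 of them (13.6%), EGR1, EGR2 and SRF, held a CArG box on either strand in a window of this size, against 438 of 27305 genes (1.6%). The cAMP response element TGACGTCA was found in 2 of the 22 and in 2.25% of genes, and the AP-1 site TGANTCA in 1 of the 22 and in 9.37% of genes. A match describes the letters of the window and is not a measured binding site. Sites outside the window, or with any base off the strict pattern, were not counted, so a gene without a match may still have one.

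The surface molecules and cytokines of activation that could be tested showed no called difference. Of 25 genes 13 were tested, 9 were above 0 and 4 below, with a median log2 fold change of 0.09. Of the 13, CXCL8, a chemokine gene, had an unadjusted p of 0.0349 and an adjusted p of 1 by edgeR. It had 0 and 1 counts with TSP1 at 1 and 3 h against 3 and 4 without, so no size is given. LTA, which encodes lymphotoxin alpha, was at 2.68, 2.01 and 1.53 CPM with TSP1 and 1.10, 2.45 and 1.32 CPM without, and its values overlapped. FASLG, the death ligand, was not tested, with 87 counts against 59 at 3 h, a ratio of 1.39 (interval 0.986 to 1.97). IL2 had at most 8 counts in any activated WT library, so a TSP1 effect on this growth factor was not detectable at this depth.

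Of 16 immune checkpoint genes 10 were tested, with 8 above 0, 2 below and 1 at an unadjusted p under 0.05. CD96, a receptor related to TIGIT, was at 44.5, 31.9 and 25.2 CPM with TSP1 and 55.2, 35.6 and 27.1 CPM without. It was lower in every pair, but the groups overlapped across time points, and the log2 fold change was -0.19 (SE 0.08, unadjusted p = 0.0218, adjusted p = 1 by edgeR). The difference between the lines in this effect was -0.02 (SE 0.11). HAVCR2, which encodes TIM-3, was at 1.20, 2.52 and 1.04 CPM with TSP1 and 1.48, 2.76 and 2.55 CPM without (log2 fold change -0.59, SE 0.29, unadjusted p = 0.0591, adjusted p = 1 by edgeR). PDCD1, which encodes PD-1, was higher with TSP1 at 1 h and 6 h and lower at 3 h, with a log2 fold change of 0.23 (SE 0.30).

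For the receptor complex itself no difference was called. All 24 genes of the T cell receptor complex and its proximal signaling were tested, 16 were above 0 and 8 below, 0 had an unadjusted p under 0.05, and all 24 intervals lay within 2-fold of no change. CSK, the kinase that restrains LCK, had the smallest p (log2 fold change 0.22, SE 0.11, unadjusted p = 0.0615), followed by the receptor CD6 (0.19, SE 0.10). Of 18 NF-kB feedback and target genes 17 were tested, 12 above 0, with a median of 0.03 and all 17 intervals within 2-fold. TNFAIP3, the A20 protein that limits NF-kB, was at 114, 78.9 and 75.5 CPM with TSP1 and 111, 78.7 and 73.9 CPM without.

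TSP1 binds several surface proteins, and no difference was called in their transcripts either. Of 16 receptors and binding partners of TSP1 11 were tested, 6 above 0 and 5 below, with a median of 0.00106 and all 11 intervals within 2-fold of no change. ITGA6, an integrin chain, had the smallest p (log2 fold change -0.08, SE 0.08, unadjusted p = 0.308). CD36, another TSP1 receptor, had at most 2 counts in any of the 20 libraries. THBS1, the gene of TSP1 itself, was at 11.3, 9.56 and 0.653 CPM with added TSP1 and 11.8, 7.52 and 0.308 CPM without, a log2 fold change of 0.12 (SE 1.02). The fibroblast collagen gene COL1A2 had 61, 39 and 0 counts with TSP1 and 34, 33 and 0 without. In these 6 libraries both genes were thus lowest at 6 h. With TSP1 alone at 1, 3 and 6 h, COL1A2 had 0, 45 and 32 counts and THBS1 was at 0.168, 10.3 and 6.87 CPM. There both genes were lowest at 1 h, so the low values did not go with time. The part of COL1A2-expressing cells in the THBS1 level was not tested.

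Pathways downstream of CD47 or of TSP1 were represented by 2 lists. Of 23 genes of the TGF-beta pathway, which TSP1 can engage by activating latent TGF-beta, 21 were tested, 13 were above 0 and 8 below, with a median of 0.04. TGIF1, a repressor of SMAD target genes, was at 3.57, 5.89 and 6.82 CPM with TSP1 and 5.02, 7.20 and 8.96 CPM without. It was lower in each pair, with a log2 fold change of -0.38 (SE 0.14, unadjusted p = 0.0174, adjusted p = 1 by edgeR). ID3, an inhibitor of DNA binding that responds to SMAD signaling, was at 77.4, 24.1 and 21.1 CPM with TSP1 and 49.4, 25.7 and 16.4 CPM without (log2 fold change 0.31, SE 0.15, unadjusted p = 0.0537, adjusted p = 1 by edgeR). Of 17 enzymes of cyclic nucleotide and hydrogen sulfide metabolism, which CD47 is known to affect, 16 were tested, 7 above 0 and 9 below, with a median of -0.06. PDE5A, a cGMP phosphodiesterase, was at 1.52, 1.54 and 0.326 CPM with TSP1 and 2.25, 1.63 and 1.05 CPM without (log2 fold change -0.66, SE 0.29, unadjusted p = 0.0414, adjusted p = 1 by edgeR).

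The BCL2 family had 12 of 16 tested members above 0, a median of 0.04 and 0 at an unadjusted p under 0.05, and BCL2L1, which encodes BCL-XL, was at 51.5, 48.7 and 57.3 CPM with TSP1 and 48.5, 44.2 and 52.8 CPM without. The MYC family and its partners gave 6 of 11 above 0 with a median of 0.04. With the GC offset, 4 of the 11 were above 0 and the median was -0.00112. Interferon-stimulated genes gave 8 of 18 above 0 (median -0.03), quiescence and homing genes 6 of 14 (median -0.03), glycolysis and hypoxia genes 7 of 22 (median -0.02) and sterol synthesis genes 7 of 19 (median -0.02). ATF4 stress genes gave 7 of 19 (median -0.02), heat shock chaperone genes 6 of 15 (median -0.02), S phase genes 8 of 20 (median -0.00416) and G2 and M phase genes 6 of 20 (median -0.05). In each of these lists 0 genes had an unadjusted p under 0.05. SLC7A11, the cystine transporter, was the ATF4 target with the smallest p (log2 fold change -0.18, SE 0.09, unadjusted p = 0.0599). Among the 13 mRNAs of the mitochondrial genome 12 were below 0, with a median of -0.06, but at 6 h 11 of the 13 were higher with TSP1.

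**Figure D3:**
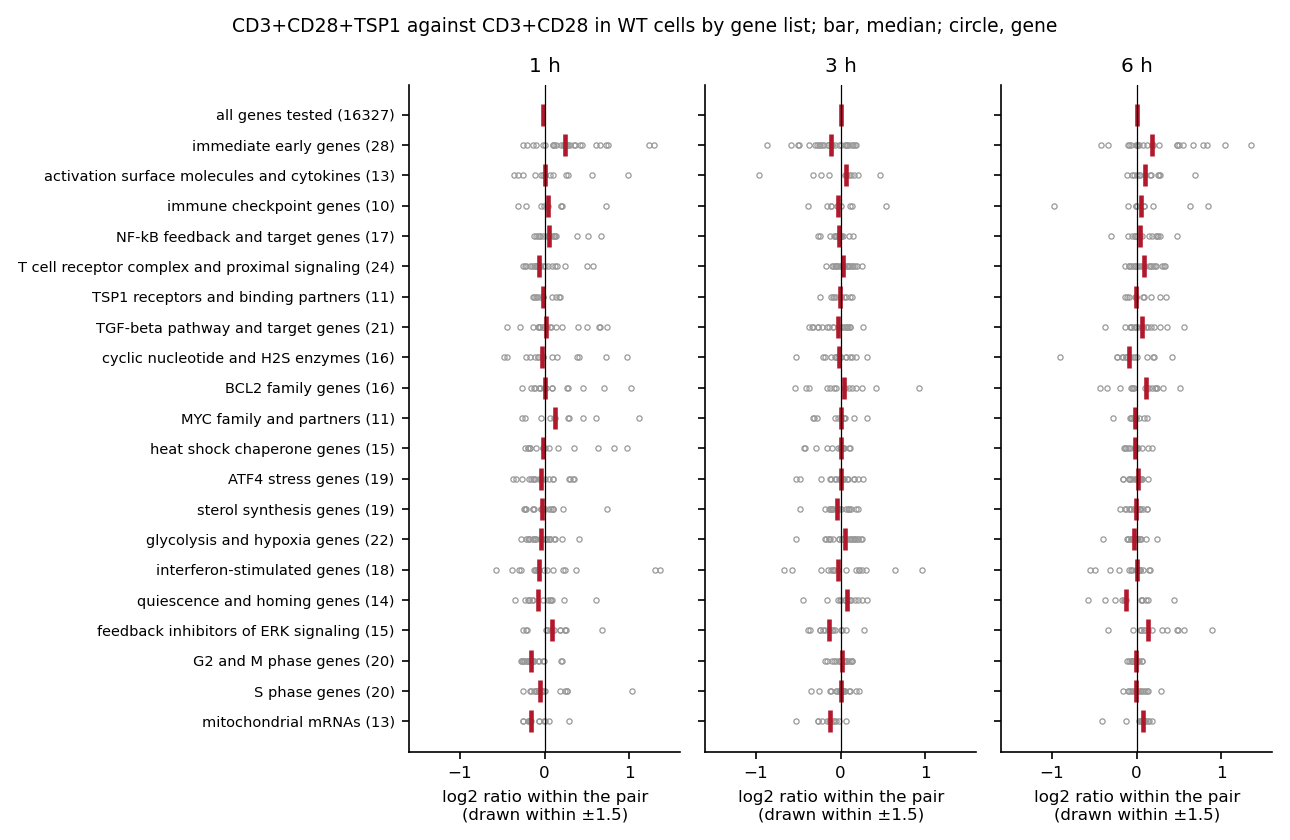
Log2 ratio of CD3+CD28+TSP1 to CD3+CD28 within the WT pair at 1, 3 and 6 h for each gene list, with the number of genes tested in brackets. Circles are genes, drawn within 1.5 units of 0, and red bars are medians. The median of the immediate early genes is to the right at 1 h and 6 h and to the left at 3 h (0.25, -0.11 and 0.18), and most other medians lie close to 0.

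Some genes pointed the same way in all 3 pairs. Where the mean log2 CPM was 2 or more, the 8 higher ones with the smallest p were ABCB8, R3HDM4, FMNL1, ADGRE5, GRN, MROH6, IFT140 and HDAC7. Their log2 fold changes ran from 0.25 to 0.52, with unadjusted p from 0.00107 to 0.00767 and an adjusted p of 1 by edgeR for each. ABCB8, a mitochondrial ABC transporter, was at 17.9, 16.5 and 29.1 CPM with TSP1 and 11.6, 13.1 and 23.9 CPM without, and its log2 fold change was 0.41 (SE 0.10). In CD47- cells ABCB8 also had higher values with TSP1, by 0.23, 0.55 and 0.17 at 1, 3 and 6 h on the log2 scale, the 0.55 from the pair whose TSP1 library stands apart. HDAC7, a class IIa histone deacetylase of thymocytes, was at 62.2, 42.8 and 49.3 CPM with TSP1 and 49.8, 36 and 43.3 CPM without. ADGRE5, which encodes the adhesion receptor CD97, was at 20.8, 13.1 and 18.8 CPM with TSP1 and 16.4, 9.79 and 16.9 CPM without. FMNL1 is a formin that shapes actin in leukocytes and GRN encodes progranulin. The transcripts of all 8 genes had a GC content between 58.3% and 68.3%, against a median of 48.5% over the genes tested, and with the GC offset their log2 fold changes were 0.11 to 0.31.

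The 8 lower ones were SNORD3D, ZNF565, C14orf39, SRR, TLR3, KIF18A, RNVU1-18 and FASTKD2, again with an adjusted p of 1 by edgeR. ZNF565, a zinc finger protein gene, was at 6.29, 8.92 and 7.02 CPM with TSP1 and 9.08, 9.79 and 12.6 CPM without, so each TSP1 value was below every value without TSP1. Its log2 fold change was -0.50 (SE 0.14, unadjusted p = 0.00247). TLR3, a sensor of double-stranded RNA, was at 4.91, 4.39 and 3.36 CPM with TSP1 and 6.02, 6.75 and 4.83 CPM without. SRR, which encodes serine racemase, was at 5.53, 6.06 and 4.99 CPM with TSP1 and 8.75, 7.79 and 5.54 CPM without. KIF18A, a mitotic kinesin, had a log2 fold change of -0.19 (SE 0.06) in WT cells, and the difference between the lines was 0.01 (SE 0.09). FASTKD2, a mitochondrial RNA-binding protein, had one of -0.17 (SE 0.06). Apart from the 2 small RNA genes these transcripts had a GC content between 32.6% and 45.9%.

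SNORD3D, the 1 gene that DESeq2 called (adjusted p = 2.99e-05), is a copy of the U3 small nucleolar RNA, which guides processing of ribosomal RNA. Its entry lies at chr17:19112420-19112636 on the minus strand of GRCh38. It had 0 counts in all 3 libraries with TSP1 and 10375, 3807 and 756 counts at 1, 3 and 6 h without. Against a floor of 3 counts in each TSP1 library, this is at least 3700-fold, 1350-fold and 339-fold lower. In edgeR its unadjusted p was 7.57e-05 and its adjusted p was 1, and with the 6 libraries alone and the time point as a replicate block its adjusted p was 4.37e-06. To show how alike the copies are, the first 217 bases of 4 GENCODE entries are set side by side, with capitals where a base differs from SNORD3D.
SNORD3D: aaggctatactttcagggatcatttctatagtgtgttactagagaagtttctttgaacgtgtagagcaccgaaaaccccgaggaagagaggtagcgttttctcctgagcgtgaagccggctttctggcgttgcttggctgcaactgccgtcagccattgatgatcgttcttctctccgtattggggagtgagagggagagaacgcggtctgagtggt
SNORD3A: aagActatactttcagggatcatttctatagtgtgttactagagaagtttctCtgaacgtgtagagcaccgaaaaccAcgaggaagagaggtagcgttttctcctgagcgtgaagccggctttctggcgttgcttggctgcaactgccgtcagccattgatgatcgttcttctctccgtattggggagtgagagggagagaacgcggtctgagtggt
SNORD3B-1: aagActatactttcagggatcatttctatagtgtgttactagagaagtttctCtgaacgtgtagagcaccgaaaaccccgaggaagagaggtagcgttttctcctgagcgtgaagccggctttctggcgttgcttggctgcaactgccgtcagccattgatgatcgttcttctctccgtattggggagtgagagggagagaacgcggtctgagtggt
SNORD3C: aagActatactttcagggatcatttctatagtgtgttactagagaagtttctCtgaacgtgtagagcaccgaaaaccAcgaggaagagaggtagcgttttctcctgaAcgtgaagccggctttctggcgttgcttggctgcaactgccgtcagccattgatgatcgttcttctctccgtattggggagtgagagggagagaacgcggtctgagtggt
SNORD3A shares 214 of the 217 bases with SNORD3D, SNORD3B-1 and SNORD3B-2 share 215 and SNORD3C shares 213. RSEM divides reads that match several copies by estimate, so the level of a single copy is uncertain, and the part of read assignment in the SNORD3D values was not tested.

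The sum over the U3 copies did not vanish. It was 1300, 829 and 761 CPM with TSP1 and 1730, 1030 and 870 CPM without, log2 ratios of -0.41, -0.32 and -0.19. SNORD3C was at 316, 15.1 and 37.5 CPM with TSP1 and 99.1, 75.6 and 7.55 CPM without, and so moved in both directions. SNORD3D also had no counts in WT cells given TSP1 alone at 6 h, where the CD3+CD28 library had 33.2 CPM. In CD47- cells SNORD3D was lower with TSP1 in each pair. Its levels there were 19.7, 15.2 and 0 CPM with CD3+CD28+TSP1 and 31.4, 42.1 and 20.1 CPM with CD3+CD28. In WT cells given TSP1 alone at 1 h it was at 603 CPM, the highest level of any WT library. RNVU1-18, a copy of the U1 small nuclear RNA, was at 283, 218 and 39.2 CPM with TSP1 and 746, 339 and 326 CPM without, while RNU1-2, another U1 copy, was at 347, 599 and 400 CPM with TSP1 and 460, 325 and 158 CPM without. Their individual levels are equally uncertain.

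**Figure D4:**
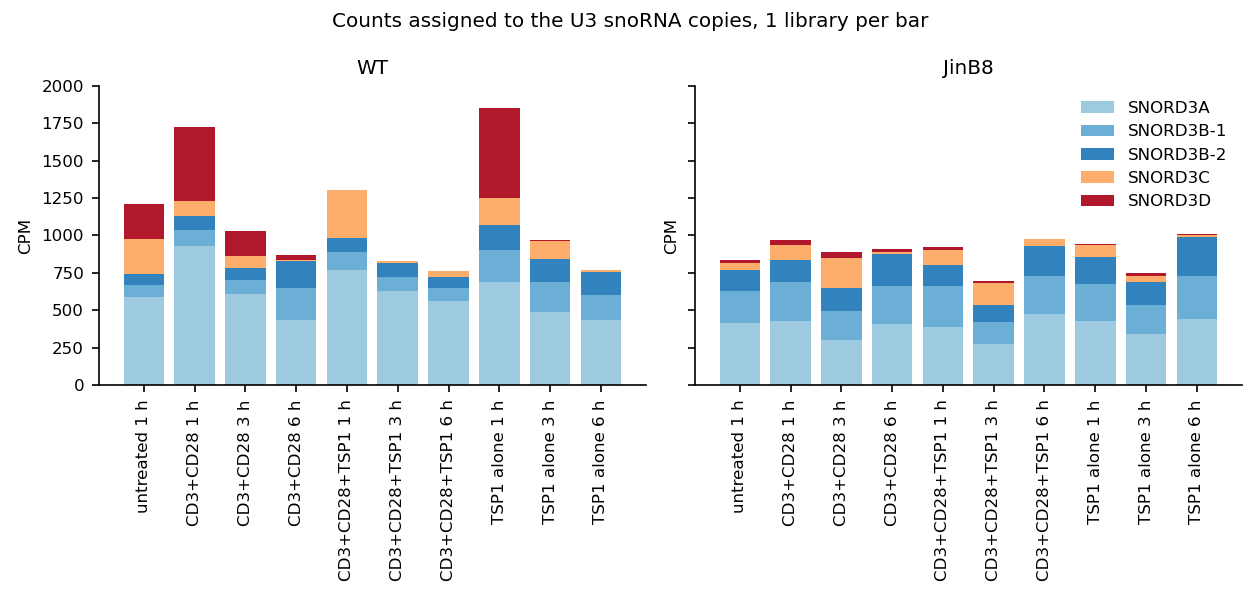
Stacked CPM assigned to 5 U3 copies in each WT and CD47- (JinB8) library, 1 library per bar. The SNORD3D segment is absent from the 3 WT CD3+CD28+TSP1 bars, which still total 1300, 829 and 761 CPM, and it is also absent or small in most other bars, CD47- cells included.

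The 1 h pair differed from the others in the number of genes past 1.5-fold. With TSP1, 554 of 10733 genes (5.16%) were over 1.5-fold higher and 35 (0.326%) lower at 1 h, against 42 (0.391%) higher and 67 (0.623%) lower of 10747 at 3 h. The transcripts of the 554 genes had a median GC content of 64.1%, against 48.5% over all genes tested. At 3 h 494 of the 554 were lower with TSP1, and at 6 h 394 were higher, while of all 16327 genes tested 8094 were higher at 3 h and 8108 at 6 h. Genes were divided into 5 groups of equal size by GC content. In the group with the highest GC content, from 57.4% to 73.8%, the median log2 ratios of the 1, 3 and 6 h pairs were 0.33, -0.03 and 0.03. In the group with the lowest GC content they were -0.10, -0.06 and -0.01. The contrast between these groups, relative to the mean of the 6 libraries, was -0.30 in the CD3+CD28 library at 1 h and 0.15 in the CD3+CD28+TSP1 library at 1 h, so the former was the one that lay lowest. With a curve on GC content removed within the pair, 110 genes were over 1.5-fold higher and 63 lower at 1 h. JUNB, an AP-1 subunit, was at 97.2 CPM with TSP1 and 39.2 CPM without at 1 h, and at 19.9 and 36.7 CPM at 3 h, so its ratio went from 2.48 to 0.542.

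**Figure D5:**
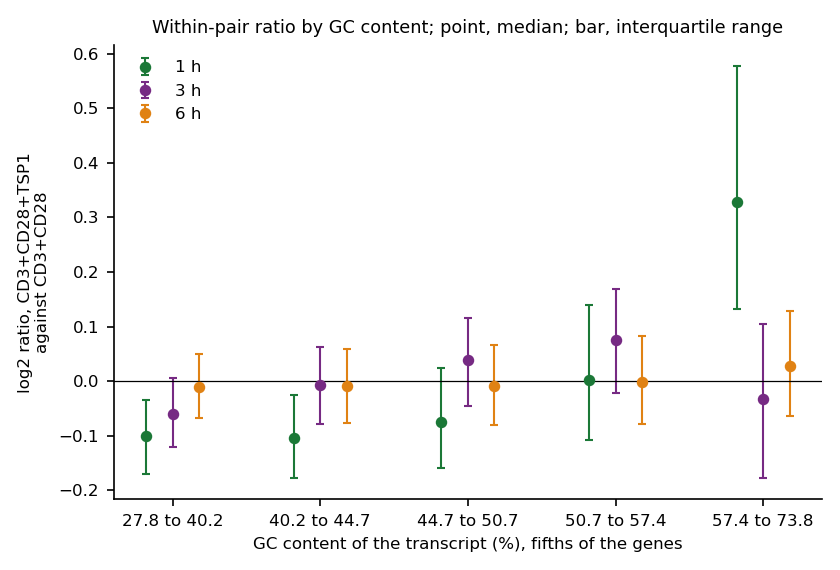
Median log2 ratio within the WT pair (points) and interquartile range (bars) for genes with a mean of at least 5 CPM, in 5 groups of GC content. The group with the highest GC content lies at 0.33 at 1 h, above all other points, and the medians at 3 h and 6 h stay within 0.1 of 0.

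TSP1 was added to CD47- cells in the same way, which shows the response where the receptor is deficient. There edgeR called 0 genes (smallest adjusted p 0.459), with 1771 at an unadjusted p under 0.05 (10.8%), and DESeq2 and limma voom called 0. The CD47- library given CD3+CD28+TSP1 at 3 h stands apart, with 16107921 counts, the fewest of the 20, and in its pair 942 genes were over 1.5-fold higher and 421 lower of 11081, against 39 and 9 at 1 h and 30 and 26 at 6 h. The difference between the lines in the TSP1 effect gave 0 genes in edgeR (smallest adjusted p 0.966), DESeq2 and limma voom, and 393 genes at an unadjusted p under 0.05 in edgeR (2.41%). For MCL1 the difference was 0.20 (SE 0.18), for CD69 0.58 (SE 0.40) and for EGR3 0.40 (SE 0.42), WT minus CD47-. The median log2 fold change of the immediate early genes was -0.03 in CD47- cells, where the 3 h pair with that library had the negative pair median, and 0.09 in WT cells.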

How the data were processed

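Total RNA from cell pellets was made into TruSeq mRNA libraries for paired-end sequencing. Per the labels and the study's methods, the authors used cutadapt 1.18 for trimming, STAR 2.4.2a for alignment to GRCh38 and RSEM 1.3.3 for quantification, and deposited expected counts per gene on GENCODE annotation; values were not normalized. The genes table was used and the isoform table was not; 2 further columns were not used. Expected counts were rounded, filtered by line with filterByExpr (minimum count 10) and tested with edgeR 4.0.16 (R 4.3.3, TMM factors, quasi-likelihood test, Benjamini-Hochberg over 16327 genes). The model held all 20 libraries, a term for each line and treatment and time terms for 3 and 6 h in each line, with 8 residual degrees of freedom. Time points paired the libraries: deviations from the group means correlated at 0.683, 0.565 and 0.828 for 1, 3 and 6 h. Within-pair ratios are log2(CPM + 0.5), for counts past 1.5-fold in genes with a pair mean of at least 5 CPM. Exact binomial intervals and floors of 3 counts cover counting error only.

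DESeq2 1.42.0 and limma 3.58.1 voom with quantile normalization, other filters, factors, sample sets and a GC offset (loess, span 0.5, added after seeing the data) were alternatives. GC content, coordinates and U3 sequences are from GENCODE release 44, the promoter from RefSeq; 16269 of the genes tested matched GENCODE. The model was run on counts simulated from its own fit, which does not test whether its error term is right for these data. Members and lists were chosen with earlier results of these data known. Named genes were the 8 higher and 8 lower of uniform sign with the smallest p, up to 2 per list by p, and any gene called. Genes that the study examined, or cites for an earlier TSP1 response (CD69, EEF1A1, ETS1 and YOD1), were also named. Nothing in the labels says whether dishes were separate cultures, so p-values measure the spread between these libraries.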

Additional observations from a re-analysis of the deposited data

Results flagged for a closer look

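For 2 named genes every WT pair moved one way with TSP1 and every CD47- pair the other way. SRR was lower in all 3 WT pairs (log2 ratios -0.62, -0.34 and -0.14 at 1, 3 and 6 h) and slightly higher in all 3 CD47- pairs (0.03, 0.16 and 0.03). Its difference between the lines, WT minus CD47-, was -0.47 (SE 0.18, unadjusted p = 0.0197, adjusted p = 0.966 by edgeR). FOXO1, a transcription factor of T cell quiescence, was lower in all 3 WT pairs (-0.23, -0.45 and -0.12) and higher in all 3 CD47- pairs (0.11, 0.66 and 0.14), a difference of -0.63 (SE 0.22, unadjusted p = 0.0138, adjusted p = 0.966 by edgeR). The CD47- pair at 3 h, which gave the largest CD47- value for both SRR and FOXO1, includes the library with the fewest counts. Over all genes, 257 of 16327 (1.57%) pointed opposite ways in all pairs. SRR was named for its uniform sign in the WT pairs, so that part of its pattern was fixed by the choice. The 1.57% is not the matching share for a gene chosen this way.

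The activation surface molecules and cytokines had a positive median in each WT pair (0.01, 0.07 and 0.10) and a negative one in each CD47- pair (-0.04, -0.31 and -0.04). The -0.31 is from the 3 h pair, whose TSP1 library has the fewest counts and stands apart, and the other CD47- medians are near 0. The list's median log2 fold change in WT cells was 0.092. The difference between the lines was not tested for this list, and 0 of all genes were called for it by edgeR.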

How the results depend on the processing

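The absence of calls for TSP1 in activated WT cells held with limma voom, no replicate block, upper-quartile factors, a filter of 1 CPM in every library, the 10 WT libraries alone, the GC offset alone and each of 6 libraries left out. DESeq2 gave 1 gene, as did edgeR on the 6 libraries with the time point as a replicate block, with and without the GC offset (1 each, SNORD3D, adjusted p = 4.37e-06 without the offset). With all genes kept regardless of count, edgeR's calls numbered 84 for TSP1 and 140 for the difference between the lines. Of the 84, 65 were in the filtered table, where 23 had an unadjusted p under 0.05 and the smallest adjusted p was 1; the unfiltered fit had infinite degrees of freedom for the median gene, against a median prior of 5.64 with the filter. Leaving out 1 of 12 libraries gave 0 to 1 genes for the difference between the lines, the 1 being RN7SL466P without the WT CD3+CD28 library at 3 h (adjusted p = 0.0285 by edgeR).

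Genes at an unadjusted p under 0.05 numbered 210 with DESeq2, 897 without a filter, 59 without the replicate block in 20 libraries, 39 without it in 6, and 716 without the CD47- CD3+CD28+TSP1 library at 3 h. Leaving out 1 library gave 233 to 894 genes, the former when the 1 h TSP1 library was dropped and the latter when the 3 h one was, and 718 without CD3+CD28 at 3 h. With a pair mean of at least 20 CPM, the genes past 1.5-fold numbered 263 higher and 12 lower at 1 h, 8 and 32 at 3 h, and 18 and 9 at 6 h. With the GC curve removed they numbered 110 and 63 at 1 h, and 44 lower at 3 h.

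Small effects of genes that were not called crossed 0. ETS1 was at -0.00388 with DESeq2, -0.00271 without a filter, -0.000923 with 1 CPM in every library, -0.000475 with the replicate block in 6 libraries, -0.00173 with 10 WT libraries and -0.00289 without the CD47- library. MCL1 was at 0.0825 with voom. Without the replicate block CD40LG was at 0.0156 (20 libraries) and 0.0113 (6 libraries) and CD69 at -0.118 and -0.129. With the GC offset MCL1 was at 0.0138, CD40LG at 0.0208, MYCN at -0.000845, CD47 at 0.0101 and E2F1 at -0.00523, and with the block added MCL1 was at 0.0205, CD40LG at 0.0218, CD47 at 0.0126 and E2F1 at -0.00352. With 1 library left out the ranges were -0.138 to 0.104 for MCL1, -0.0848 to 0.103 for CD40LG, -0.124 to 0.226 for TNF, -0.11 to 0.208 for MYCN, -0.108 to 0.142 for MYC, -0.239 to 0.372 for CD69, -0.185 to 0.0495 for EEF1A1 and -0.0694 to 0.044 for ETS1. They were -0.085 to 0.44 for HSPA1B, -0.00684 to 0.0938 for STIM1, -0.0208 to 0.242 for THBS3 and -0.654 to 1.24 for THBS1.

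List medians depended on the setting and on single libraries. That of TSP1 receptors was -0.00775 with DESeq2 and -0.012 with 1 CPM in every library, where activation molecules were at 0.0352, and that of heat shock genes was -0.00376 with voom. With 1 library left out the ranges were 0.0288 to 0.115 for activation molecules, 0.0252 to 0.116 for checkpoint genes, -0.0146 to 0.098 for NF-kB genes, -0.0395 to 0.0205 for TSP1 receptors and -0.0251 to 0.0535 for TGF-beta genes. They were -0.1 to -3.31e-05 for cyclic nucleotide and H2S enzymes, 0.0164 to 0.0921 for the BCL2 family, -0.037 to 0.193 for the MYC family, -0.0786 to 0.0187 for heat shock genes and -0.0577 to -0.000966 for sterol synthesis genes. With the GC offset the median was 0.00504 for TGF-beta genes, 0.0455 for activation molecules and -0.00112 for the MYC family. It was -0.0368 for cyclic nucleotide and H2S enzymes and -0.0349 for ATF4 stress genes. The cause of these shifts was not tested. Genes near the floor of 3 counts, TIGIT and MYCNOS among them, cannot be compared at this depth.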
